A study of Mus musculus with 8 samples.

Results

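The cytosolic ribosomal protein genes of mouse liver were described in 8 libraries of polyadenylated RNA. They were taken as the protein-coding entries of the deposited table whose symbols follow the standard pattern of the family (Rpl or Rps and a number, with or without a final a, x, y or l, and Rplp0 to Rplp2 and Rpsa). The pattern used names only and no measured value, and it found 81 of the 45777 genes in the table. Of these, 47 belong to the large subunit, 31 to the small subunit and 3 to the acidic stalk of the large subunit. The pattern misses subunits with other names, such as Fau, Rack1 and Rps3a1, which are given separately.

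All livers were from male C57BL6 mice, whose high-fat feeding began at the age of 8 weeks and lasted 10 weeks. The C2-AKT group (n = 4) came from crosses of ROSA26-C2-AKT with Alb-Cre mice, in which the albumin promoter drives Cre recombinase in hepatocytes, and the control group (n = 4) carries the genotype label wild type with C2-AKT (-/-). The sources used here do not say whether control mice carried Cre, nor which form of AKT the C2-AKT sequence encodes. A number in the titles is 2 in every control library and 4 in every C2-AKT library, and its meaning, which is not stated, and the genotype cannot be told apart. Libraries are called by their group and the number from 2 to 5 in their title. Whether the libraries are from separate animals is not stated, so the spread behind each p-value is that between libraries and may be partly technical.

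A ribosome is built from ribosomal RNA and one copy each of most ribosomal proteins, so cells keep the supply of these proteins in balance. Their mRNAs are among the best known 5′ terminal oligopyrimidine (TOP) mRNAs, which begin with a C followed by a run of C and T (C and U in the RNA). Translation of TOP mRNAs is raised by the kinase complex mTORC1, which lies downstream of AKT in insulin signalling. Sequencing of polyadenylated RNA measures the amount of these mRNAs and not their translation.

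The annotated starts show this feature for some of the genes and not for others. The next lines give 20 bases before and 15 bases after the annotated start in 7 genes, from RefSeq promoters on GRCm38.p6, 5′ to 3′ on the strand of the gene. Capitals mark the run of C and T that begins with a C exactly at the start, where there is one. They were picked as examples, 5 genes with such a run and 2 without it, and do not divide core subunits from paralogs. The core genes Rplp0, Rpl4, Rpl10 and Rpl41 have no run exactly at the annotated start, while Rpl32l has one of 10 bases.
Rps6 (chr4:86857353-86857387, minus strand): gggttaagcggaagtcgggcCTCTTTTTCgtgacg
Rplp2 (chr7:141447631-141447665, plus strand): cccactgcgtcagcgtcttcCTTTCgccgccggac
Rpl38 (chr11:114668560-114668594, plus strand): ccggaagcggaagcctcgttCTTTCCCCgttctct
Rpl15 (chr14:18270972-18271006, minus strand): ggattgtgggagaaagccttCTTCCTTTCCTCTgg
Rps27 (chr3:90213634-90213668, minus strand): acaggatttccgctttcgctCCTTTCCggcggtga
Rps27l (chr9:66946066-66946100, plus strand): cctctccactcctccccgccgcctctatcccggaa
Rpl3l (chr17:24727806-24727840, plus strand): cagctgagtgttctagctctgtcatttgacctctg

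Promoters of 61 of the 81 genes were found in the RefSeq table, as 73 entries of 300 bases (250 before and 50 after the start). A C at the start followed by at least 4 further C or T was present in 14 of the 73 entries (19.2%), against 823 of 32851 promoters of all genes (2.51%). The longest such run was 13 bases, in Rpl15. A run of at least 8 C or T that begins with C and reaches to within 30 bases of the start, on the strand of the gene, was present in 45 of 73 entries (61.6%), against 21.7% of all promoters. This second pattern includes the runs of 8 or more bases at the start itself. The motif CCGGAAGT, read on either strand, was found in 12 of 73 entries (16.4%) and in 3.89% of all promoters. These are matches of letters at annotated starts and were not measured in these livers.

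The genes are spread over 19 chromosomes, and 4 of them, Rpl10, Rpl36a, Rpl39 and Rps4x, are on the X chromosome. Their annotated transcripts are short, with a median of 795 bases in the 80 genes with a value against 2825 bases among all genes tested that have one. Their median GC content was 51.6%, against 50.3% for all genes tested. Of the 81 gene spans, 23 (28.4%) contain an annotated small nucleolar RNA gene named Snora or Snord, against 0.471% of the protein-coding genes tested. Rpl13a, for example, holds Snord32a, Snord33, Snord34 and Snord35a, and 41 of the 81 genes overlap some other annotated gene. The sources used here do not give the strand setting of the counting, so reads of such overlapping genes cannot be told apart.

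Library totals lay between 51.4 and 63.8 M counts (M as in CPM, counts per M). All 10 hepatocyte marker genes were tested, and their summed level was 79144 to 106489 CPM of all counts over the libraries. C2-AKT replicate 5 stood apart: 10 pancreatic acinar genes took 9.09% of its counts, against 0.000747% to 0.00270% in the other libraries, and its summed level of 6 pancreatic islet genes was 62.2 CPM against 0 in each of the others. Of these genes 2 of the 10 acinar and 0 of the 6 islet genes passed the count filter over all libraries. Results that rest on that library are given with and without it. The titles also carry endings whose meaning the labels do not state: control replicate 5 and C2-AKT replicate 2 have none, C2-AKT replicate 5 ends in _2, and the other 5 libraries end in _1. Among the marker lists of other cells, the summed levels of macrophage, lymphocyte, neutrophil, endothelial, stellate, cholangiocyte, erythroid and cycling cell genes overlapped between groups. The summed level of 7 adipocyte genes did not, at 49.8 to 106 CPM in control and 33.3 to 42.3 CPM in C2-AKT libraries. At an unadjusted p below 0.05 in edgeR, 3 of the 4 adipocyte genes tested and 1 of the 3 neutrophil genes tested were lower. Of all genes 5.13% passed in either direction, and 0 adipocyte or neutrophil genes passed after adjustment. The part of the adipocyte genes in any result below was not tested.

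Ribosomal protein mRNAs took about 1% of all counts in these livers. Their share was 0.939% in control replicate 2, 0.891% in replicate 3, 1.02% in replicate 4 and 1.02% in replicate 5. In the C2-AKT group it was 0.899% in replicate 2, 0.925% in replicate 3, 0.878% in replicate 4 and 0.938% in replicate 5. The groups overlapped, at 0.969% ± 0.0651 (SD, n = 4) in control and 0.910% ± 0.0270 (SD, n = 4) in C2-AKT. The total of C2-AKT replicate 5 includes 9.09% of counts in pancreatic acinar genes, which lowers its share. The ratio of the C2-AKT to the control share was 0.9395. It was 0.964 without the acinar and islet genes, 0.990 over genes passing the count filter and 0.930 without C2-AKT replicate 5. The exact Clopper-Pearson 95% interval of a single library was narrow, 0.936% to 0.942% in control replicate 2 for example, and covers counting error only. By summed TPM, which corrects for transcript length, the share was 2.09% ± 0.128 (SD, n = 4) in control and 2.00% ± 0.0607 (SD, n = 4) in C2-AKT. In such bulk samples, fewer cells of a type and less RNA per cell cannot be told apart.

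Levels per length differed 28.3-fold between the highest and the lowest of the 77 genes that passed the count filter, with a median of 257 TPM over all libraries. Of these, 73 were above 100 TPM. Rpl10, which joins the large subunit late in its maturation, was the highest, at 662 ± 81.0 TPM (SD, n = 4) in control and 648 ± 8.08 TPM (SD, n = 4) in C2-AKT. It was followed by Rps2 with a mean of 575 TPM over the 8 libraries, Rpl41, the shortest ribosomal protein, with 485 TPM, Rps18 with 480.5 TPM and Rpl4, whose protein lines the exit tunnel, with 479 TPM. The order of the last 3 is within their spread between libraries.

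The lowest levels were those of Rps15a with 23.2 TPM, Rps20 with 40.0 TPM, Rpl22 with 51.9 TPM, Rpl15 with 93.8 TPM and Rpl21 with 114 TPM. Levels per length rest on the annotated transcript, and the matched transcripts of these 5 genes are long for the family, from 1856 bases (Rpl21) to 5179 bases (Rps15a). The deposited TPM of Rps15a was 23.5 ± 3.00 (SD, n = 4) in control and 22.9 ± 0.849 (SD, n = 4) in C2-AKT libraries. The order of the levels was nearly the same in both groups, with a Spearman correlation of 0.993 across the 77 genes, which are not independent replicates. Medians by subunit were 258 TPM for the large subunit, 252 TPM for the small subunit and 327 TPM for the stalk.

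**Figure D1:**
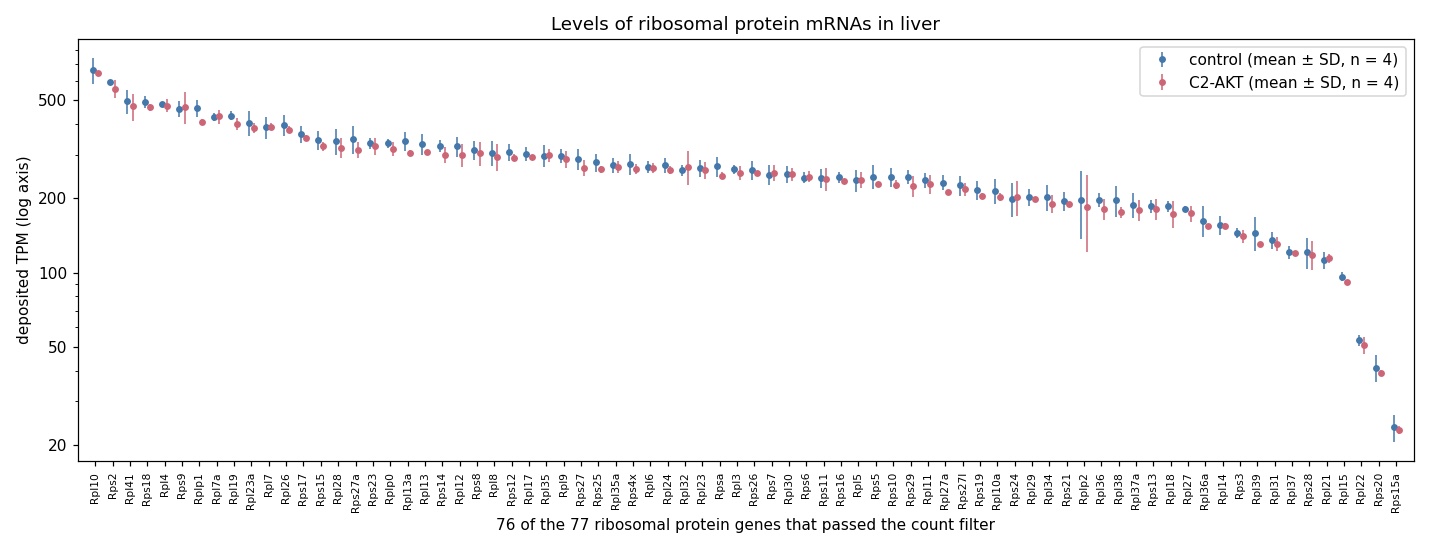
Deposited TPM (log axis) of 76 of the 77 ribosomal protein genes that passed the count filter, ordered by their mean over all libraries; points are group means and bars are SD over 4 libraries, control in blue and C2-AKT in red. Levels run from 655 TPM for Rpl10 to 23.2 TPM for Rps15a, and Rplp2 has the widest bars among its neighbours in the order.

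4 genes of the family were not tested because the count filter removed them, and the symbols of all 4 end in l, for a relative of a core subunit. Rpl10l (chromosome 12, 66283379 to 66284401), a testis copy of the X-linked Rpl10, had a count of 0 in every library. Rpl39l (chromosome 16, 10170197 to 10174911), the male germ cell form of Rpl39, had a count of 4 in control replicate 5 and in C2-AKT replicate 2 and 0 elsewhere. Rpl32l had between 0 and 3 counts in each library, and no role is given to it here. Rpl3l (chromosome 17, 24727826 to 24736143), the heart and skeletal muscle form of Rpl3, had 13, 7, 6 and 3 counts in control replicates 2 to 5. In C2-AKT it had 6 counts in replicate 2 and 0 in the other 3 libraries. Most of these values are at or near the 3 counts that a count of 0 allows. Without the count filter 80 of the 81 genes could be tested, and 0 of them had an unadjusted p below 0.05 in edgeR. Rpl3 itself stood, in CPM after TMM scaling as for all single genes here, at 211 ± 14.6 CPM (SD, n = 4) in the control group and 204.5 ± 17.4 CPM (SD, n = 4) in C2-AKT libraries.

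The other paralog pairs were both expressed. Rps27 was at 59.9 ± 8.34 CPM (SD, n = 4) in the control group and 55.2 ± 6.16 CPM (SD, n = 4) in C2-AKT libraries. Its paralog Rps27l, known as a target of p53, was at 68.9 ± 5.55 and 66.6 ± 5.12 CPM (SD, n = 4 each). Per length the pair stood at 290 ± 28.9 TPM for Rps27 and 226 ± 20.9 TPM for Rps27l in control libraries (SD, n = 4 each). Near-identical copies are a limit of such counts: the table holds 224 rows named as ribosomal protein pseudogenes, of which 166 had counts. Together these came to 1.32% of the counts of the 81 genes, and the sources used here do not say how reads were shared out between copies.

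No ribosomal protein gene passed the test for a difference between C2-AKT and control livers. With edgeR's quasi-likelihood test and Benjamini-Hochberg adjustment over all genes, 0 of the 77 genes tested passed 0.05, where 4 of all 15686 genes did (0.0255%). At an unadjusted p below 0.05 the count was also 0 of 77, against 805 of 15686 genes (5.13%), and the smallest unadjusted p in the family was 0.170. DESeq2's Wald test called 0 of them as well, with 0 at an unadjusted p below 0.05, where it called 56 genes in all. In none of the 77 genes were all C2-AKT libraries below or all above the control libraries, which was the case in 1.63% of all genes for lower and 1.35% for higher.

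Fitted log2 fold changes ran from -0.18 for Rplp1 to 0.07 for Rpl32, with a median of -0.05 against -0.01 over all genes tested. The 95% intervals extended a median of 0.26 to each side, and in all but 1 of the 77 genes they stayed within 0.5 on the log2 scale in both directions. The interval of that gene, Rplp2, ran from -0.73 to 0.55. The median was -0.05 for the 43 large subunit genes, -0.04 for the 31 small subunit genes and -0.09 for the 3 stalk genes.

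**Figure D2:**
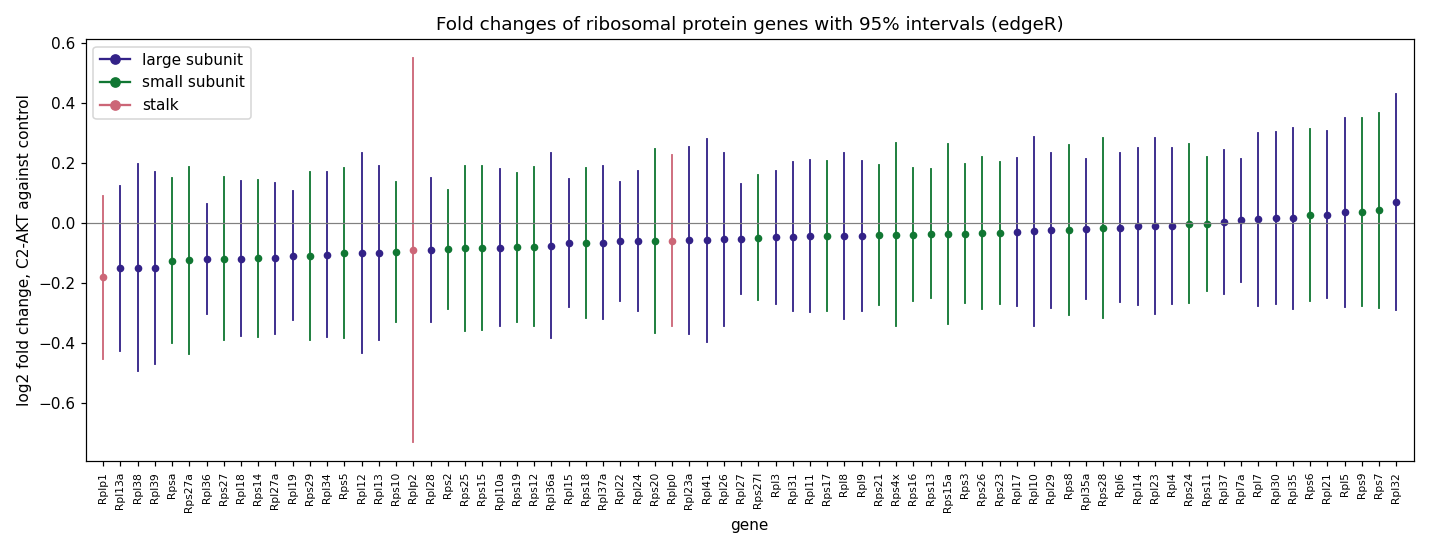
Log2 fold change of C2-AKT against control for 76 of the 77 ribosomal protein genes (points) with 95% intervals from edgeR (lines), ordered by value and coloured by subunit. Every interval includes 0, and that of Rplp2, from -0.73 to 0.55, is the widest.

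The sign of the small differences was shared but depended on the setting. The log2 fold change was negative in 66 of 77 genes, against 51.9% of all genes. It was negative in 35 of 43 large subunit, 28 of 31 small subunit and 3 of 3 stalk genes. Without C2-AKT replicate 5 it was negative in 77 of 77 genes (52.7% of all genes), with a median of -0.13, and none passed an unadjusted p of 0.05 (smallest 0.0591). With an offset for transcript length the median was 0.03 and 31 of 77 were negative, and without control replicate 5 or without C2-AKT replicate 4 it was -0.003 with 39 negative in each case. With library totals in place of TMM scaling 51 of 77 were negative. With the title ending as a term, 77 of 77 were negative with a median of -0.13, and 10 were lower at an unadjusted p below 0.05, against 4.63% of all genes in that direction. No gene of the family passed the adjusted threshold in that fit either, where the smallest adjusted p (edgeR) was 0.447. C2-AKT replicate 5 is the only library with its title ending, so the ending term takes up its values. The genotype estimate then rests on the other libraries, so this fit is not independent of leaving C2-AKT replicate 5 out.

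Among the 10 genes with the smallest p-values, Rplp1, a stalk protein that recruits translation factors, had the most negative value. It was at 120.5, 114, 128 and 152 CPM in control replicates 2 to 5 and at 122, 108, 97.0 and 127 CPM in C2-AKT replicates 2 to 5. The lowest library was in the C2-AKT group and the highest in the control group, and 2 of the C2-AKT libraries lay above the lowest control library. The log2 fold change was -0.18 ± 0.12 (SE), with a 95% interval of -0.45 to 0.09 and an unadjusted p of 0.170 (edgeR, adjusted p = 0.9999). It was -0.24 without C2-AKT replicate 5, -0.11 without C2-AKT replicate 4, -0.09 without control replicate 5 and -0.09 with an offset for transcript length.

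Rpl36, a small protein of the large subunit, varied little, at 46.4, 45.2, 51.1 and 47.4 CPM in control and 44.2, 46.2, 39.7 and 44.8 CPM in C2-AKT libraries. The groups overlapped through a single C2-AKT library above the lowest control library. Its log2 fold change was -0.12 ± 0.08 (SE, 95% interval -0.30 to 0.06).

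Rpl13a, which in human monocytes leaves the ribosome to silence inflammatory mRNAs, was at 193, 181, 209.6 and 243 CPM in control and 191, 180.4, 162 and 211 CPM in C2-AKT libraries. Control replicate 5 was the highest and C2-AKT replicate 4 the lowest, with the other libraries between 180.4 and 211 CPM. The log2 fold change was -0.15 ± 0.12 (SE). Rpsa, a small subunit protein also described as a laminin receptor, was at 269, 262, 316 and 342 CPM in control and 278, 268, 239 and 306 CPM in C2-AKT libraries. The same libraries held its extremes, and its log2 fold change was -0.12 ± 0.12 (SE).

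Rpl39, whose product lies at the exit tunnel of the large subunit, was at 35.4, 28.7, 38.4 and 46.4 CPM in control and 35.0, 32.0, 29.7 and 37.7 CPM in C2-AKT libraries. Both its lowest and its highest library were controls, and its log2 fold change was -0.15 ± 0.14 (SE). The remaining 5 of the 10 genes, Rpl19, Rpl27a and Rpl18 of the large and Rps14 and Rps2 of the small subunit, had log2 fold changes from -0.12 to -0.09. Their groups also overlapped. Rps2, which shapes the entry of the mRNA channel, was the steadiest of these, at 339, 342, 352 and 364 CPM in control and 339, 330.3, 312 and 334 CPM in C2-AKT libraries.

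Rps6, the subunit that S6 kinase phosphorylates downstream of AKT and mTORC1, was at 188, 185, 198 and 227 CPM in control and 207, 183, 177 and 248 CPM in C2-AKT libraries. Both its lowest and its highest values were in the C2-AKT group. The log2 fold change was 0.03 ± 0.13 (SE, 95% interval -0.26 to 0.31), and without C2-AKT replicate 5 it was -0.08. Phosphorylation of the protein is not measured by RNA sequencing. Rplp0, the stalk base that is often used as a reference gene, was at 251, 253, 277 and 294 CPM in control and 253, 232, 228 and 319 CPM in C2-AKT libraries, a log2 fold change of -0.06 ± 0.13 (SE). The X-linked genes also lay close to 0 on that scale, with -0.03 for Rpl10, -0.04 for Rps4x and -0.07 for Rpl36a, beside -0.15 for Rpl39.

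The differences between single libraries were larger than the difference between the groups, and the genes shared them. Levels were expressed as log2 CPM minus the mean of that gene over the 8 libraries, and then averaged over the 77 genes. This mean deviation was -0.01, -0.14, 0.08 and 0.18 in control replicates 2 to 5 and -0.03, -0.08, -0.19 and 0.19 in C2-AKT replicates 2 to 5. Each group held a library near each end, so the range within a group was 0.32 in control and 0.37 in C2-AKT, against a difference of -0.06 between the group means. In C2-AKT the upper end was replicate 5 alone, the library with the pancreatic transcripts, and the other C2-AKT libraries were all negative. The C2-AKT range and the group difference therefore rest on that library. Without it the median log2 fold change of the family was -0.13.

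The direction in a library was shared by nearly all genes in most libraries. In control replicate 5, 72 of 77 genes were above their own mean, and in C2-AKT replicate 5, 74 of 77 were. In C2-AKT replicate 4 only 1 of 77 was above its mean, in control replicate 3 it was 3, and in C2-AKT replicate 3 it was 7. Control replicate 4 had 68 of 77 above. Control replicate 2 with 31 and C2-AKT replicate 2 with 38 were mixed. C2-AKT replicate 4 was the lowest library for 50 genes and control replicate 3 for 17, while control replicate 5 was the highest for 43 and C2-AKT replicate 5 for 28.

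**Figure D3:**
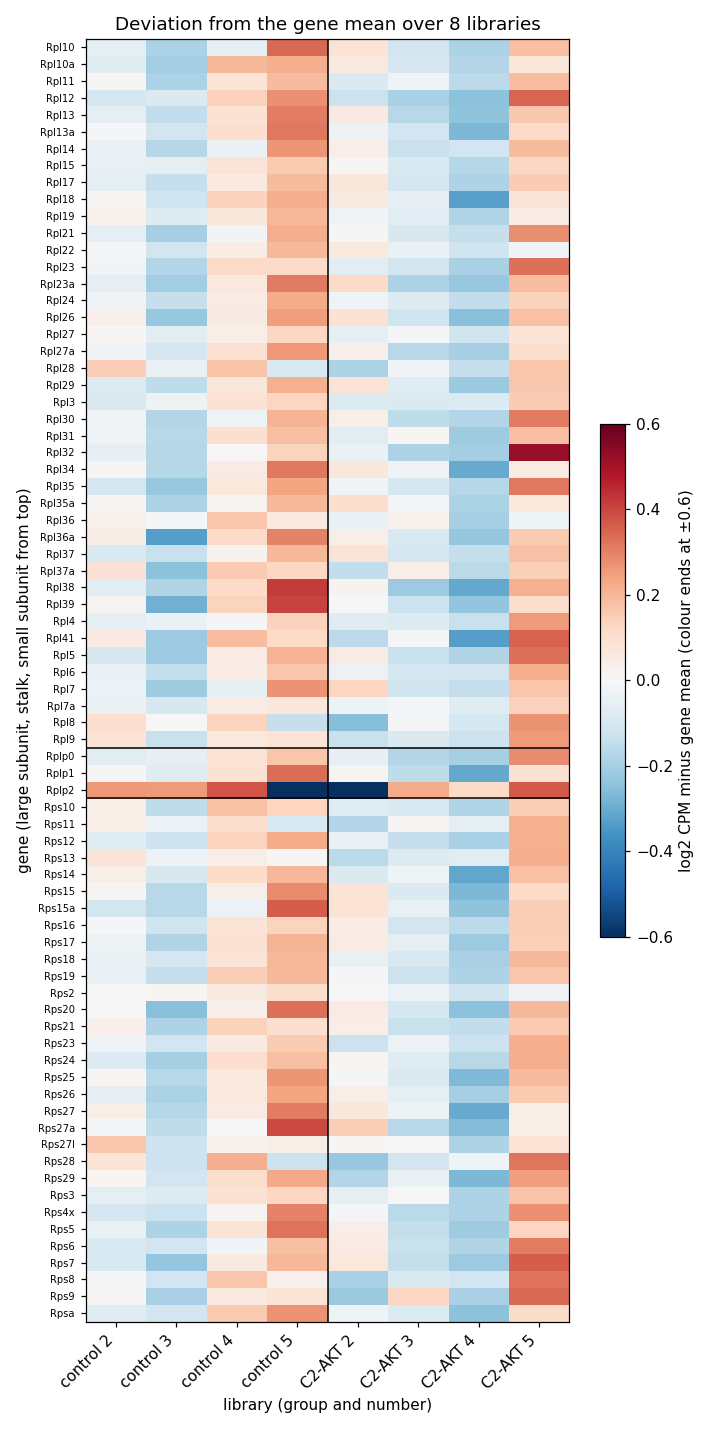
Log2 CPM minus the mean of each gene over the 8 libraries, for 76 of the 77 ribosomal protein genes (rows, by subunit) in 8 libraries (columns, controls left of the line); red is above and blue below the gene's mean, with colours ending at 0.6 in both directions. Columns are mostly of 1 colour, with control replicate 5 and C2-AKT replicate 5 red and control replicate 3 and C2-AKT replicate 4 blue, and Rplp2 breaks the pattern in control replicate 5 and C2-AKT replicate 2.

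As a description over the 8 libraries, which share depth and scaling, the median Pearson correlation between 2 members was 0.83 over 2926 pairs, and 97.3% of the pairs were positive. The first principal component held 72.1% of the variance of the 77 genes, against 27.8% for all genes tested. Most of the family also varied less than the median gene tested. The SD of log2 CPM over the libraries had a median of 0.17 in the 77 genes against 0.24 in all genes tested, and 74 of the 77 were below the latter. Such an SD also holds counting error, which is larger at low counts, and 73 of the 77 genes were above 100 TPM. Genes of similar level were not compared.

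Several properties of the libraries were set beside this shared movement, and the part of transcript length or GC content in it was not tested. In 958 other genes with transcripts under 1000 bases, the median deviation was 0.03, -0.02, 0.05 and 0.12 in control and 0.01, 0.04, -0.12 and -0.05 in C2-AKT replicates 2 to 5. It was highest in control replicate 5 and lowest in C2-AKT replicate 4, which also stood near the top and at the bottom for the ribosomal protein genes, but it was below 0 in C2-AKT replicate 5. After the trend of deviation on transcript length was removed, the mean deviation of the 77 genes was -0.03, -0.15, 0.03 and 0.12 in control and 0.00, -0.09, -0.08 and 0.20 in C2-AKT libraries. C2-AKT replicate 4 then no longer lay lowest. This trend, and that on GC content below, was fitted over all tested genes with a value, the 77 genes included.

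In 609 other genes with over 60% GC, the median deviation was 0.20, 0.17, 0.23 and -0.47 in control and -0.32, 0.13, 0.04 and 0.02 in C2-AKT libraries. The 2 libraries with the negative values are those whose titles have no ending. After the trend on GC content was removed, the mean deviation of the ribosomal protein genes was -0.03, -0.19, 0.05 and 0.29 in control and 0.04, -0.10, -0.20 and 0.14 in C2-AKT libraries. C2-AKT replicate 5 had the high level of ribosomal protein genes together with the pancreatic transcripts, and their part in it was not tested.

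**Figure D4:**
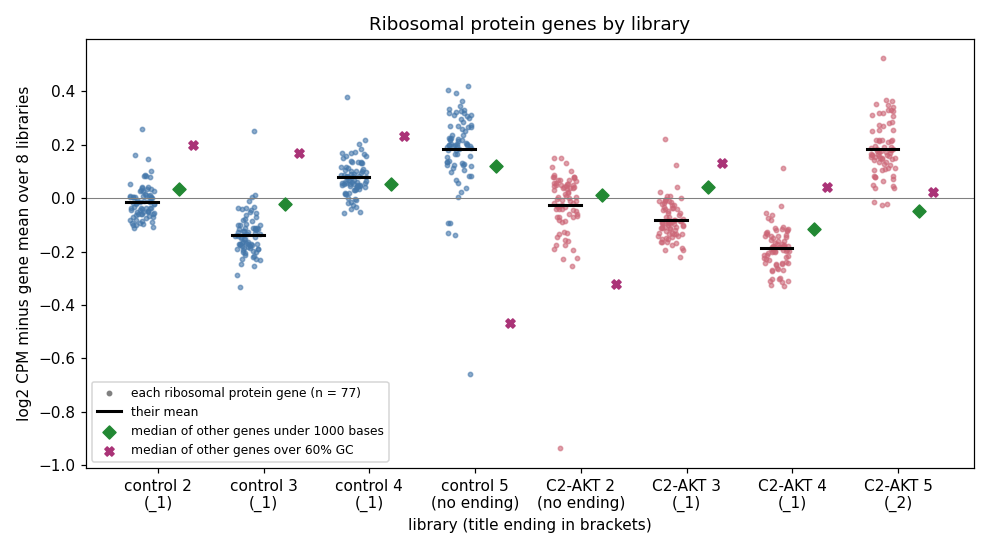
Log2 CPM minus the gene mean over 8 libraries (y axis) for each of 77 ribosomal protein genes (dots) and their mean (black line) in each library, controls in blue and C2-AKT in red, with the title ending in brackets; diamonds give the median of other genes under 1000 bases and crosses that of other genes over 60% GC. The black lines range from -0.14 to 0.18 in control and from -0.19 to 0.19 in C2-AKT libraries, so each group spans most of the whole range. In C2-AKT the upper end is replicate 5 alone, the library with the pancreatic transcripts.

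Rplp2 did not move with the other genes. Rplp1 and Rplp2 form the dimers of the stalk, which Rplp0 anchors to the large subunit. Rplp2 (chromosome 7, 141447651 to 141451359, with Snora52 inside it) was at 58.3, 58.1, 63.4 and 30.9 CPM in control and 25.5, 56.9, 52.7 and 63.0 CPM in C2-AKT replicates 2 to 5. The low values were in 1 library of each group, control replicate 5 and C2-AKT replicate 2, the same 2 libraries that have no title ending. In these libraries Rplp1 was at 152 and 122 CPM and Rplp0 at 294 and 253 CPM, each among the 2 highest of its group. The log2 fold change of Rplp2 between genotypes was -0.09 ± 0.29 (SE). It ranged from -0.28 to 0.13 when single libraries were left out, and the value of 0.13 was found without C2-AKT replicate 2.

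The difference by title ending was fitted after these values were seen, with the genotype as a term and C2-AKT replicate 5 left out, so 2 libraries stood against 5. In that fit 6 of the 77 genes passed an adjusted p of 0.05 (7.79%), below the 9.75% of all 16416 genes tested, so the count is no result about the family. Rplp2 was lower by a log2 value of -1.03 ± 0.09 (SE), with a 95% interval of -1.22 to -0.83 and an adjusted p of 0.00141 (edgeR). The other 5 were higher in the libraries without ending, among them Rps27a by 0.41, Rpl38 by 0.38, Rpl23a by 0.35 and Rpl10 by 0.35 on the log2 scale. Over the family 69 of 77 values were positive, with a median of 0.19. The share of positive values over all genes is not given here, so this count is not read as a result about the family. The left-out C2-AKT replicate 5 had a mean deviation of 0.19 in the family, above the -0.03 of C2-AKT replicate 2, which has no ending.

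Rps27a, which is made as a fusion with ubiquitin, shows the opposite order to Rplp2 on this axis. It was at 143, 129, 143 and 189 CPM in control and 159, 128, 120.0 and 148 CPM in C2-AKT libraries. The highest library of each group was the one without ending. Its difference between genotypes was -0.12 ± 0.14 (SE) on the log2 scale. Rpl38, known in mouse embryos for the translation of Hox mRNAs, was at 33.8, 31.2, 38.2 and 47.4 CPM in control and 35.9, 30.4, 28.6 and 41.0 CPM in C2-AKT libraries. Here control replicate 5 was the highest and C2-AKT replicate 2 was exceeded by C2-AKT replicate 5. Its log2 fold change between genotypes was -0.15 ± 0.15 (SE).

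Besides Rplp2 and Rpl38, Rpl32 had one of the 3 largest SDs over the libraries. It was at 75.6, 69.5, 78.4 and 85.9 CPM in control and 76.1, 68.5, 67.8 and 112 CPM in C2-AKT libraries. A single library, C2-AKT replicate 5, lay above all others. The log2 fold change was 0.07 ± 0.16 (SE), and -0.13 without that library.

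**Figure D5:**
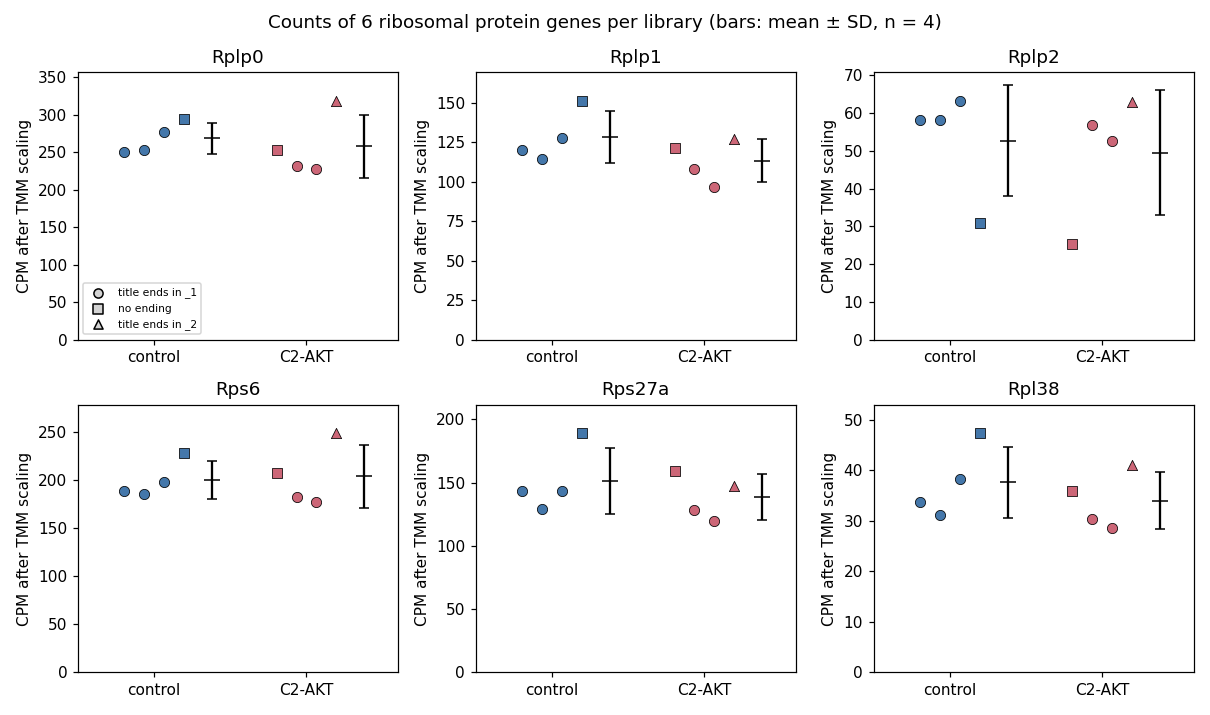
CPM after TMM scaling of 6 ribosomal protein genes in each library, control in blue and C2-AKT in red, with circles for titles ending in _1, squares for titles without ending and a triangle for the title ending in _2; bars give the mean ± SD of 4 libraries and the y axes start at 0. The 2 squares of Rplp2 lie at 30.9 and 25.5 CPM, below all its other libraries (52.7 to 63.4 CPM), while the squares of Rps27a are the highest of their groups.

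Because the 3 stalk genes encode proteins with a shared end, the last 60 coding bases of each are shown, stop codon included, from the GENCODE vM21 transcripts on GRCm38. Capitals mark bases that are identical in all 3.
Rplp0: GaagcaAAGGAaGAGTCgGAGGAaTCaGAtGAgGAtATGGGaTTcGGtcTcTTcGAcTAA
Rplp1: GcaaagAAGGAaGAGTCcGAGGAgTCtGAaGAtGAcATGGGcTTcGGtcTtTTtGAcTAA
Rplp2: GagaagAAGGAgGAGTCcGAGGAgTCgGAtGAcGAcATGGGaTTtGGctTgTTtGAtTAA

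In these ends 41 of 60 bases are shared by all 3 genes, and 48 of 60 are shared by Rplp1 and Rplp2. Their coding sequences are 954, 345 and 348 bases long in the order Rplp0, Rplp1 and Rplp2. GC content of the coding sequence was 55.9%, 57.7% and 56.3%, and the richest stretch of 100 bases held 66%, 70% and 68% GC. The part of GC content or length in the low Rplp2 values was not tested. Within the whole family, the Spearman correlation of the difference by title ending with GC content was -0.16 across 77 genes, as a description.

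Subunits of the ribosome that the name pattern misses, with their close paralogs, gave 10 more genes, all tested, of which 0 passed the threshold. Their median log2 fold change was -0.09, with 8 negative values (51.9% of all genes were negative). Rack1, a scaffold on the small subunit, had -0.11 ± 0.12 (SE), at 198 ± 18.9 CPM (SD, n = 4) in the control group and 183 ± 25.3 CPM (SD, n = 4) in C2-AKT libraries. Fau, whose product carries a ubiquitin-like protein at its start, had -0.06. Rps3a1, the Rps3a gene of the mouse, had -0.01. The paralogs Rpl36al, Rpl22l1, Rpl7l1 and Rps4l had -0.12, -0.16, -0.11 and -0.21, and Rps27rt had 0.16.

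Rpl9-ps6, a copy of Rpl9, was the only one of the 10 without overlap (1.35% of all genes were higher and 1.63% lower without overlap), at 1.17, 1.02, 1.203 and 0.902 CPM in control and 1.56, 1.22, 1.206 and 1.49 CPM in C2-AKT libraries. The highest control and the lowest C2-AKT library were nearly equal, at 1.203 and 1.206 CPM. It differed by 0.35 ± 0.20 (SE) on the log2 scale, and the unadjusted p in edgeR's test was 0.102. It can share reads with Rpl9, which was at 128 ± 9.01 CPM (SD, n = 4) in the control group and 124 ± 17.0 CPM (SD, n = 4) in C2-AKT libraries, so its level is uncertain.

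Genes that act with the ribosome were compared in the same fit. Of 20 translation factors and binding proteins, many of them encoded by TOP mRNAs, 0 passed the threshold. Their median log2 fold change was -0.03, with 14 negative values (51.9% of all genes were negative). The 3 with the smallest p were Eif4b, a helicase cofactor and S6 kinase substrate, with -0.11 ± 0.10 (SE), Pabpc4, a cytoplasmic poly(A)-binding protein, with 0.21 ± 0.22 (SE), and Eif3k, a subunit of initiation factor eIF3, with -0.13 ± 0.15 (SE). Pabpc4 was at 62.5 CPM in C2-AKT replicate 5 and between 27.4 and 40.7 CPM in the other 7 libraries, and its value was -0.06 without that library.

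Of 20 genes of mTORC1 and its regulation 0 passed, with a median of 0.04 and 8 negative values (51.9% of all genes were negative). Ddit4, an inhibitor of mTORC1, was at 1.45, 2.18, 1.61 and 0.979 CPM in control and 1.84, 2.22, 1.91 and 2.51 CPM in C2-AKT libraries. The groups overlapped through control replicate 3, and the log2 fold change was 0.45 ± 0.24 (SE, 95% interval -0.10 to 0.99). Mlst8, a partner of mTOR, had 0.11 ± 0.10 (SE) and Rheb, the GTPase that activates mTORC1, -0.10 ± 0.08 (SE).

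Of 36 genes of ribosome biogenesis 0 passed, with a median of -0.06 and 30 negative values (51.9% of all genes were negative). Of the 36, 1 gene was lower and 0 were higher at an unadjusted p below 0.05, where 5.13% of all genes passed in either direction. That gene was Polr1c, a subunit shared by RNA polymerases I and III, at 10.6, 12.8, 12.4 and 13.6 CPM in control and 11.01, 10.1, 9.54 and 10.1 CPM in C2-AKT libraries. Control replicate 2 was its only control below the highest C2-AKT library. The edgeR estimate was -0.28 ± 0.10 (SE) on the log2 scale, with an adjusted p of 0.892. Pes1 and Gnl3, both nucleolar proteins of large subunit maturation, had -0.19 ± 0.08 and -0.20 ± 0.10 (SE).

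The 78 mitochondrial ribosomal protein genes, which build the separate ribosome of the mitochondrion, also had 0 genes past the threshold. Their median was -0.05, with 56 negative values (51.9% of all genes were negative). Mrps12 had no overlap between groups, at 24.1, 23.8, 23.4 and 26.5 CPM in control and 22.4, 22.9, 20.8 and 20.02 CPM in C2-AKT libraries. Of all genes, 1.63% were lower and 1.35% higher without overlap. The log2 fold change of Mrps12 was -0.18 ± 0.09 (SE) with an adjusted p of 0.981 in edgeR. Mrps16 had -0.23 ± 0.11 and Mrpl17 -0.15 ± 0.09 (SE). The mean deviation of the mitochondrial set was -0.01, -0.02, 0.01 and 0.11 in control and -0.03, 0.06, -0.07 and -0.05 in C2-AKT replicates 2 to 5. It was highest in control replicate 5, where the cytosolic set was also high at 0.18, but below 0 in C2-AKT replicate 5, where the cytosolic set stood at 0.19. In C2-AKT replicate 5 the genes outside the name pattern stood at 0.14 and the translation factors at 0.09. The mTORC1 genes stood there at 0.095 and the biogenesis genes at 0.0006. In C2-AKT replicate 4 these 4 lists were at -0.21, -0.04, 0.04 and 0.02, in the same order.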

How the data were processed

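Polyadenylated liver RNA was sequenced in 8 libraries, 4 of each genotype. Per the submitters' processing notes, the builds were GRCm38 and mm10 and the tools StringTie 2.1.3b, HISAT2 2.1.0, Trimmomatic and bcl2fastq 2.20.0. The sources used here give neither their settings, the strand of the kit nor the making of the counts. The deposited table holds whole-number counts per gene, not normalized. The deposited FPKM values, per the file headers, correct for transcript length and depth, and were not analysed further. The deposited TPM values, per the file headers, correct for length and sum to nearly the same total in each library.

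Counts were tested with edgeR 4.0.16 in R 4.3.3 (filterByExpr, TMM, quasi-likelihood test, two-sided, Benjamini-Hochberg over 15686 genes, threshold 0.05), with no covariate. A standard error is the size of the log2 fold change over the root of F. Per-library levels are CPM after TMM scaling. Gene sets are described by counts and medians without a test. Alternatives used DESeq2 1.42.0 and limma 3.58.1, the latter on log2(TPM + 1) and log2(TPM + 0.1), whose fold changes understate those of low genes. Scripts were tested on simulated data.

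The members and lists were chosen with earlier results of these data known. Genes were named by rule: the 10 smallest p-values, the 5 highest and 5 lowest in TPM, those removed by the filter, a fixed set with known special roles, the 3 largest SDs, and up to 3 per related list. Other genes named were chosen after their values were seen. Single values of some genes of the fits are not reported here, though the counts and medians include them. Transcript length and GC content come from GENCODE vM21 and were available for 86.8% of the genes tested. Coordinates come from RefSeq on GRCm38.p6, with 45675 of 45777 identifiers matched. Clopper-Pearson intervals and the limit of 3 counts cover counting error only.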

Additional observations from a re-analysis of the deposited data

Results flagged for a closer look

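In groups of 4 libraries, 108 checks for a library far from the other 3 were made over 54 items, and 7 were marked; chance marks about 1 in 20 groups. Rplp2 was at 30.87 CPM in control replicate 5, against 58.1 to 63.4 CPM in the other controls. Rps4l, a paralog of Rps4x, was at 7.349 CPM in the same library, against 13.5 to 14.5 CPM in the other controls, and at 7.01 CPM in C2-AKT replicate 2, which also has no title ending. Rps27rt was at 0.9029 CPM in control replicate 2, against 0.613 to 0.633 CPM in the other controls.

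In C2-AKT replicate 5, Rpl4 was at 479.7 CPM against 366 to 382 CPM in the other C2-AKT libraries. In the same library Rpl3 was at 230.7 CPM against 195 to 196 CPM, and Rpl22l1, the paralog of Rpl22, at 12.68 CPM against 8.21 to 8.67 CPM. That library also held 9.092% of its counts in 10 pancreatic acinar genes, against 0.000914% to 0.00270% in the other C2-AKT libraries. The part of the pancreatic transcripts in these levels was not tested.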

How the results depend on the processing

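In all 25 settings run, 0 of the ribosomal protein genes passed the adjusted threshold. Their median log2 fold change, -0.053 as reported, ranged from -0.133 with the title ending as a term to 0.025 with the transcript length offset, and from -0.126 to -0.003 when single libraries were left out. The values -0.133 and -0.126 are not independent, as the ending term takes up C2-AKT replicate 5 and -0.126 was found without that library. The ratio of the C2-AKT to the control share of counts, 0.9395 as reported, ranged from 0.943 to 0.990 under other denominators, apart from 0.9396 with pseudogene rows, and from 0.915 to 0.958 when single libraries were left out. No pairing by replicate number was seen, as deviations of same-numbered libraries correlated at -0.131, -0.016, 0.069 and -0.063. The labels do not state a pairing, and such correlations cannot exclude one. With the replicate block 0 ribosomal protein genes were called, of 4 genes in all, and the median of the ribosomal protein genes was -0.0533. The GC content offsets were added after seeing the data. All 63 changes of sign among the log2 fold changes of named genes concern genes that passed no threshold, beside 1160 values without such a change, and the cause was not tested. With library totals alone, Rpl4 was 0.026, Rpl10 0.0093, Rps15a 0.0006 and Rps3a1 0.025. With the title ending as a term, Rpl21 was -0.081, Rps6 -0.0998, Rpl32 -0.142 and Pabpc4 -0.039, and in titles ending in _1 only, Rpl21 was -0.023, Rps6 -0.081, Rpl32 -0.124 and Rps27rt -0.033. With the transcript length offset, and then with the same offset and the replicate block, Rpl4 was 0.0188 and 0.0149, Rps18 0.025 and 0.022, Rpl41 0.0282 and 0.0159, Rpl10 0.054 and 0.0604, Rps27l 0.0397 and 0.0427, Rpl36a 0.0178 and 0.0252, Rps4x 0.0274 and 0.0263, Fau 0.0274 and 0.0344, and Rps3a1 0.0565 and 0.0529. When each library was left out in turn, the ranges were -0.2088 to 0.0168 for Eif3k, -0.1399 to 0.0376 for Fau, -0.0566 to 0.3674 for Pabpc4, -0.0934 to 0.0983 for Rpl10, -0.0685 to 0.112 for Rpl21, -0.1275 to 0.1475 for Rpl32, -0.1821 to 0.0194 for Rpl36a, -0.1048 to 0.0368 for Rpl4, -0.2032 to 0.0346 for Rpl41, -0.2758 to 0.1269 for Rplp2, -0.095 to 0.0959 for Rps15a, -0.1461 to 0.051 for Rps20, -0.1972 to 0.0016 for Rps27a, -0.0953 to 0.0032 for Rps27l, -0.0059 to 0.3993 for Rps27rt, -0.1015 to 0.0603 for Rps3a1, -0.1466 to 0.0625 for Rps4x and -0.0818 to 0.0959 for Rps6. Without a change of sign, Rplp1 ranged from -0.2401 to -0.0911, Rpl13a from -0.2163 to -0.063, Rpl38 from -0.2525 to -0.0198, Rpl39 from -0.255 to -0.0249, Rpsa from -0.1848 to -0.0516 and Rplp0 from -0.1761 to -0.0028. Depth limits Rpl3l, Rpl32l, Rpl39l and Rpl10l, which had 13 counts or fewer in every library.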
